A study of Mus musculus with 8 samples.

Results

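The genes described here act in the turnover of NAD and in ADP-ribose signalling. They are Cd38 and Bst1, the ADP-ribosyl cyclases, Nmrk1, a kinase of NAD synthesis that the authors' deposited table lists as BC016495, Parp1, a poly(ADP-ribose) polymerase, and Trpm2, a calcium channel opened by ADP-ribose. These 5 genes were picked by symbol from the 482 genes that could be named among 23332 probesets, and each had 1 named probeset. Any further probesets of these genes among those without a name could not be located. Every named gene comes from the authors' list of 498 probesets that differed between CD38high and CD38low cells, so the comparison of the fractions chose these genes. Their fraction differences are therefore given as a description, with no test.

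Gene expression was measured on Affymetrix arrays in CD11b+Gr1+ splenocytes, the surface phenotype of mouse myeloid-derived suppressor cells. The donors were 12-month-old L2-Cre;p120f/f mice on a mixed C57BL/6x129 background, and each of them carried esophageal tumors, so neither group is a tumor-free or Cre-free control. L2-Cre is known as a Cre line of squamous epithelium and p120 as a catenin that binds cadherins. Sorting by surface CD38 gave fractions named CD38high and CD38low, with 4 arrays each: mice 1, 2 and 3, and a pool of splenocytes from 3 mice that the labels do not place in or outside mice 1 to 3. Paired fractions share their animals, and a difference between fractions can reflect a different mix of cells as well as a different RNA level per cell, which bulk arrays cannot tell apart.

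NAD is an electron carrier and also a substrate that signalling enzymes consume. CD38 and its paralog BST1 (CD157) split NAD at the cell surface into nicotinamide and ADP-ribose, with a small part released as cyclic ADP-ribose. ADP-ribose opens TRPM2, and cyclic ADP-ribose acts on calcium stores. In mouse neutrophils this pathway is known for its part in calcium entry and migration towards formylated peptides. PARP1 consumes NAD in the nucleus when DNA is broken, and NMRK1 feeds NAD synthesis from nicotinamide riboside.

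Bst1 and Cd38 lie next to each other on chromosome 5, with 0 annotated genes between them in the GRCm38.p6 annotation. RefSeq promoter sequences were matched for 4 of the 5 genes, Cd38, Nmrk1, Parp1 and Trpm2. The 250 bases before the transcription start are shown 5′ to 3′ for Cd38 (GRCm38.p6 chr5:43868559-43868808, plus strand) as the gene of the sort, for Trpm2 (chr10:77969873-77970122, minus strand) as the channel gene, and for Parp1 (chr1:180568641-180568890, plus strand) as the 1 gene that was lower. Capitals mark the GC box, GGGCGG on either strand.
Cd38: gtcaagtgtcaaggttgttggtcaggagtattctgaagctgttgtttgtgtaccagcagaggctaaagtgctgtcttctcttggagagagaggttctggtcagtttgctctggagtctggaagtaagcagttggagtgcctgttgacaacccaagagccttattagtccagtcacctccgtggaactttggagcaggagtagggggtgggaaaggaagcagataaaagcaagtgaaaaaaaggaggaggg
Trpm2: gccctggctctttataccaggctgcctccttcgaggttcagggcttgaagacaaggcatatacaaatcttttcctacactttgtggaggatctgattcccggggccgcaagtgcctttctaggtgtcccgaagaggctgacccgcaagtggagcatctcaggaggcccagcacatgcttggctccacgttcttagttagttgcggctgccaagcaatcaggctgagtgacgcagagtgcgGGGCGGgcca
Parp1: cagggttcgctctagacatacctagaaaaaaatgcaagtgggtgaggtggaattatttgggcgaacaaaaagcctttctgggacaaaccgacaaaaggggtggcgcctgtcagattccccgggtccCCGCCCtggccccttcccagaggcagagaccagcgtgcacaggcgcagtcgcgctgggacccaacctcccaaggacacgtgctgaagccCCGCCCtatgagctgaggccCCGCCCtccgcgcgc
The Parp1 window held 3 GC boxes, the Trpm2 window 1, and the Cd38 window 0, against 32.7% of 32851 promoter windows of the same length with at least 1. The bases G and C made up 61.6% of the Parp1, 56.8% of the Trpm2 and 48.8% of the Cd38 window, with a median of 52.4% over all windows. The Nmrk1 window (chr19:18631766-18632015, plus strand) had 69.2% G and C and held 0 GC boxes. The core GAGGAA of PU.1-type sites, the C/EBP-type pattern TTNCNNAA and the E2F-type pattern TTTNNCGC, each searched on both strands, had 0 matches in the 4 windows and occurred in 23.3%, 36.8% and 4.28% of all windows. A match or its absence describes only these letters.

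Of the ADP-ribosyl cyclases, Cd38 checks the sort, since the cells were separated by the CD38 protein. In CD38high cells its log2 expression values were 12.43 in mouse 1, 12.54 in mouse 2, 12.60 in mouse 3 and 12.25 in the pool. In CD38low cells they were 10.74, 10.90, 10.56 and 9.63. The groups did not overlap, and the CD38low pool was the lowest array of the 8. The mean was 12.45 ± 0.15 (SD, n = 4) against 10.46 ± 0.57 (SD, n = 4), a log2 difference of 2.00 ± 0.26 (SE), or 3.99-fold. The SE here and for the other genes below is that of the fit without pairing. The CD38low values spread more widely than the CD38high values, where the median SD over all probesets was 0.19 and 0.17.

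Bst1, the paralog of Cd38, is a cyclase anchored in the membrane by a lipid. Its log2 values were 12.46, 12.04, 12.58 and 12.62 in CD38high cells of mouse 1, mouse 2, mouse 3 and the pool. In CD38low cells they were 11.07, 10.24, 10.96 and 11.45. The lowest CD38high array, that of mouse 2, stood 0.589 above the highest CD38low array, that of the pool. The means were 12.42 ± 0.27 and 10.93 ± 0.51 (SD, n = 4 each), a log2 difference of 1.49 ± 0.25 (SE), or 2.82-fold.

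Nmrk1, the nicotinamide riboside kinase, makes nicotinamide mononucleotide, a direct precursor of NAD. Its log2 values in CD38high cells were 8.59, 8.15, 8.84 and 8.24 in the order mouse 1, mouse 2, mouse 3 and pool, and in CD38low cells 7.62, 6.95, 7.21 and 7.18. The groups were separated by 0.525, the smallest gap of the 5 genes. The lowest CD38low value, 6.95, lay within the span of the array medians over all probesets, 6.92 to 7.10. The means were 8.46 ± 0.32 and 7.24 ± 0.28 (SD, n = 4 each), a log2 difference of 1.21 ± 0.19 (SE), or 2.32-fold.

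Trpm2, the channel that ADP-ribose opens from the cytosolic side, differed by about as much as Cd38. Its log2 values were 10.51, 9.67, 9.88 and 10.08 in CD38high and 8.01, 7.38, 7.83 and 8.81 in CD38low cells, in the same order of mice and pool. All CD38high arrays lay above all CD38low arrays, and the CD38low pool came closest to the other group, 0.861 below its lowest array. The means were 10.04 ± 0.36 and 8.01 ± 0.60 (SD, n = 4 each), a log2 difference of 2.03 ± 0.31 (SE), or 4.08-fold. Its lead over Cd38 was smaller than either SE. The order of both genes was reversed without mouse 1 (2.10 for Cd38 and 1.87 for Trpm2), without mouse 2 (2.12 and 1.94) and without some single arrays. Without mouse 3 the order was kept (1.98 for Cd38 and 2.02 for Trpm2), and without the pool Trpm2 led by more (1.79 and 2.28).

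Parp1, the nuclear NAD consumer, went the other way. Its log2 values were 7.18, 7.06, 7.16 and 7.04 in CD38high and 8.54, 7.90, 8.47 and 8.13 in CD38low cells. The CD38high arrays lay within a narrow band below every CD38low array. This band, 7.04 to 7.18, was near the array medians over all probesets, 6.92 to 7.10. Whether a dim signal narrowed the band or the fold was not tested. The means were 7.11 ± 0.07 and 8.26 ± 0.30 (SD, n = 4 each), a log2 difference of -1.15 ± 0.14 (SE), so that Parp1 was 2.22-fold lower in CD38high cells.

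**Figure D1:**
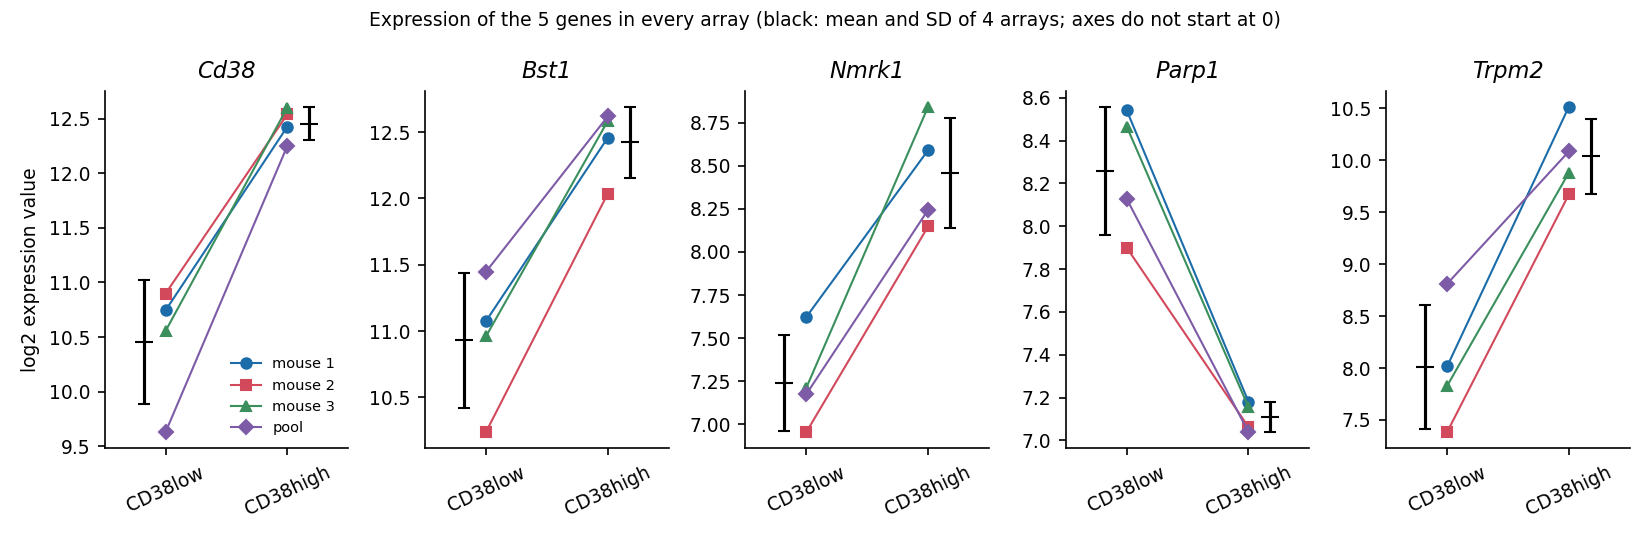
Log2 expression value (vertical axis, a separate range per panel) of the 5 genes in the CD38low and CD38high array of each mouse and the pool. Lines join the fractions of a mouse or the pool, and black marks give the mean and SD of 4 arrays. Every line rises for Cd38, Bst1, Nmrk1 and Trpm2 and falls for Parp1, with differences of the means between -1.15 and 2.03.

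The authors' deposited table holds 0.531% of all probesets as higher and 1.6% as lower in CD38high cells, and the 5 genes belong to it by choice. Non-overlapping groups, seen for 5 of 5 genes, are likewise fixed by that choice. Over all probesets, 6.99% had every CD38high array above every CD38low array and 9.37% every CD38high array below. Among 23332 probesets ordered by the size of the increase, Trpm2 was at place 22, Cd38 at 23, Bst1 at 77 and Nmrk1 at 157, and ordered by the size of the decrease, Parp1 was at 336. The series design names a 2-fold minimum, and the smallest listed differences were 1.0003 and -1.0002 on the log2 scale. Parp1 and Nmrk1 were the nearest of the 5 genes to that minimum, and the probesets just outside it stood at 0.9997 and -0.9998. The median difference of all probesets was 0.04.

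**Figure D2:**
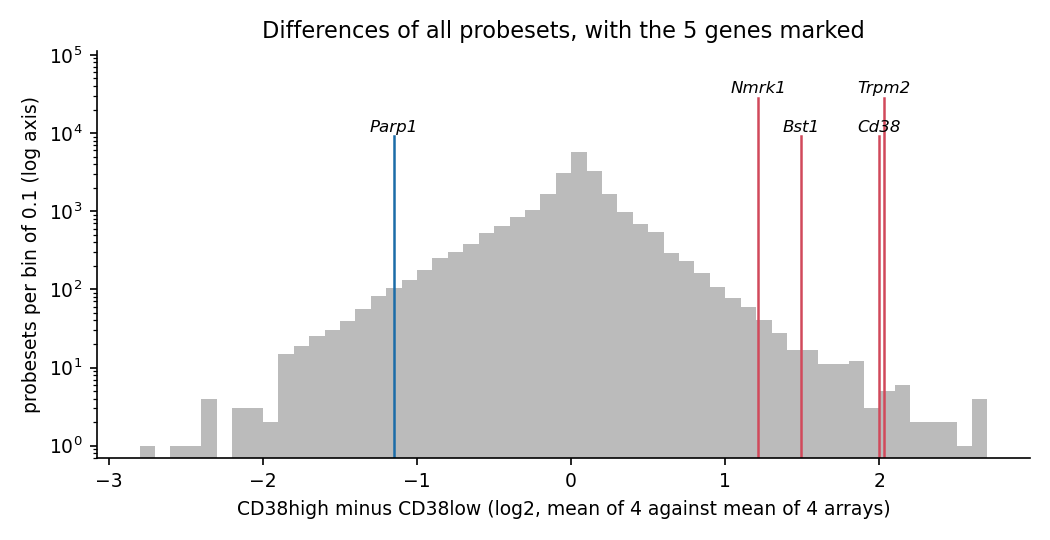
Number of probesets (log axis) by log2 difference of CD38high minus CD38low in bins of 0.1, for all 23332 probesets. Vertical lines mark the 5 genes: Parp1 at -1.15, Nmrk1 at 1.21, Bst1 at 1.49, Cd38 at 2.00 and Trpm2 at 2.03.

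The size of the difference varied between mice and pool, and not in the same order for each gene. The log2 difference of Cd38 was 1.68 in mouse 1, 1.64 in mouse 2, 2.05 in mouse 3 and 2.62 in the pool. That of Bst1 was 1.38, 1.80, 1.62 and 1.17, and that of Trpm2 was 2.50, 2.29, 2.05 and 1.27 in the same order. The pool thus had the largest difference for Cd38 and the smallest for Bst1 and Trpm2. For Nmrk1 the differences were 0.97, 1.19, 1.63 and 1.07, and for Parp1 -1.36, -0.84, -1.31 and -1.09, so mouse 2 had the smallest decrease of Parp1. As folds within a pair, Cd38 ranged from 3.12 to 6.15, Trpm2 from 2.42 to 5.65, Bst1 from 2.25 to 3.48, Nmrk1 from 1.96 to 3.09 and Parp1, downwards, from 1.79 to 2.57. With 4 pairs, no order of the mice could be tested.

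**Figure D3:**
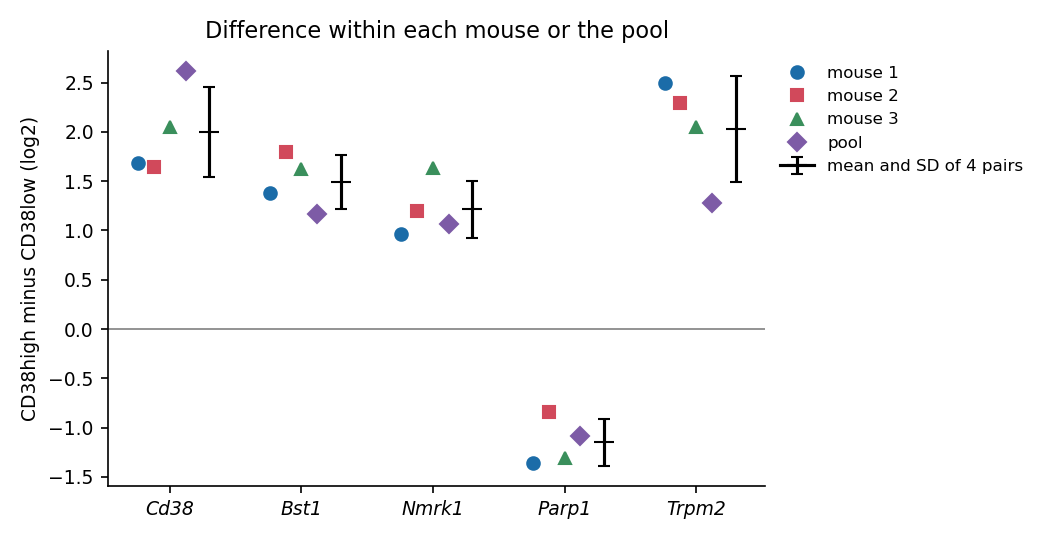
Log2 difference of CD38high minus CD38low (vertical axis) within mouse 1, mouse 2, mouse 3 and the pool for each gene, with the mean and SD of the 4 pairs in black. The pool has the highest point for Cd38 (2.62) and the lowest for Bst1 (1.17) and Trpm2 (1.27).

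Within a fraction, the arrays of the pool and of mouse 2 stood apart from the mean in opposite ways for Cd38 and for Bst1 and Trpm2. In CD38low cells the pool deviated from the fraction's mean by -0.83 for Cd38, by 0.52 for Bst1 and by 0.80 for Trpm2, all on the log2 scale. CD38low cells of mouse 2 deviated by 0.44 for Cd38, by -0.69 for Bst1 and by -0.63 for Trpm2. In CD38high cells the same signs were seen with smaller deviations. The pool was at -0.20 for Cd38, 0.19 for Bst1 and 0.05 for Trpm2, and mouse 2 at 0.08, -0.39 and -0.37. Mouse 2 was also the lowest array of its fraction for Nmrk1 in both fractions, at -0.31 in CD38high and -0.29 in CD38low cells. Among CD38low arrays, the order of Cd38 levels was thus not that of its paralog or of the channel.

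**Figure D4:**
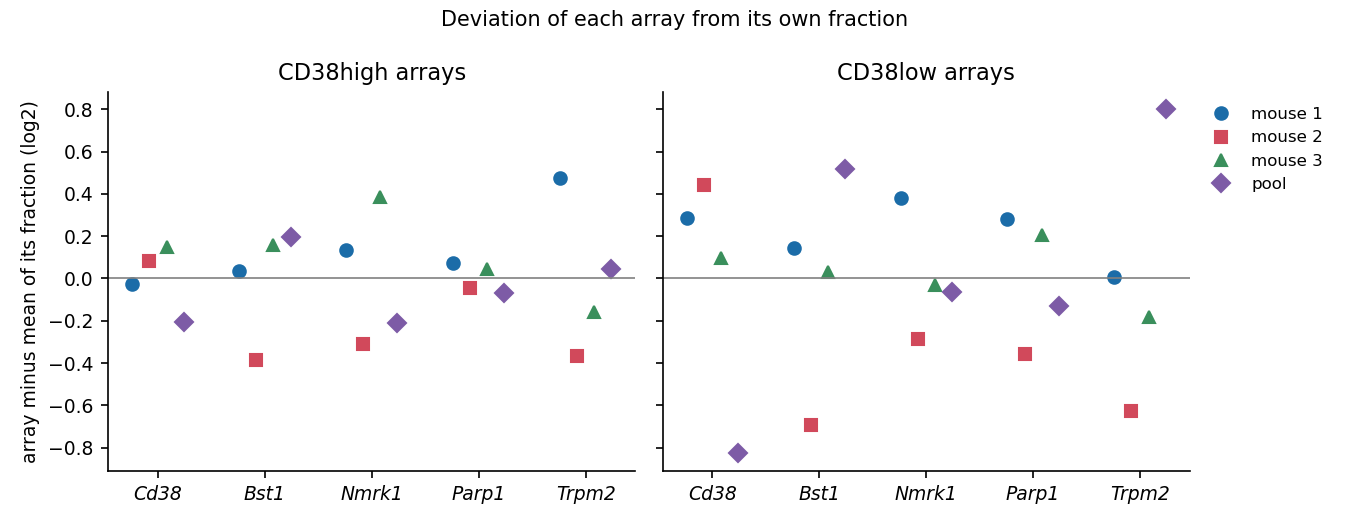
Log2 value of each array minus the mean of its fraction (vertical axis) for the 5 genes, in CD38high arrays on the left and CD38low arrays on the right. In CD38low arrays the pool is lowest for Cd38 (-0.83) and highest for Bst1 (0.52) and Trpm2 (0.80), and mouse 2 shows the reverse.

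Whether a gene's level differed between mice and pool is a question apart from the fractions. It was tested with the moderated F test of limma, with the fraction as covariate, and adjusted by Benjamini-Hochberg over all probesets. The mean of both fractions spanned 0.896 for Bst1, from 11.14 in mouse 2 to 12.03 in the pool, 0.920 for Trpm2, 0.779 for Cd38, 0.555 for Nmrk1 and 0.380 for Parp1, against a median span of 0.319 over all probesets. None of the 5 genes passed in limma at an adjusted p under 0.05 (0 of 5), while 3.14% of all probesets, 732, did. At an unadjusted p under 0.05 there was 1 of 5, Bst1 (unadjusted p = 0.0104, limma adjusted p = 0.112), where 21.5% of all probesets had such a p. The adjusted p in limma was 0.283 for Cd38, 0.263 for Nmrk1, 0.268 for Trpm2 and 0.416 for Parp1, which does not show equal levels. The authors' selection favoured genes with little spread within a fraction, so the test is not wholly apart from the choice of genes. The count of 732 fell to 0 without mouse 2 and to 0 without mouse 3.

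Further genes of the pathway were sought in 3 lists with 82 genes in all, and 8 could be named, the 5 genes above and 3 more. The remaining 74 had no entry by name in the authors' list of changed probesets. Their rows were thus not located and are not analysed here. Absence from that list does not show an unchanged level. Of 43 genes that consume NAD or handle ADP-ribose, 5 were named, 2 higher (Cd38, Bst1) and 3 lower (Parp1, Parp4, Nudt5) in limma at an adjusted p under 0.05, with a median log2 difference of -1.05. Of 27 genes of NAD synthesis and uptake, 1 was named, Nmrk1, and it was higher. Of 12 genes for channels and binding proteins of calcium messengers, inositol trisphosphate receptors among them, 2 were named, Trpm2 higher and Jpt2 lower. Their median of 0.48 lies between a rise and a fall and describes neither gene. Over all probesets 3.74% were called higher and 6.88% lower, 2479 or 10.6% in all, and 3929 with mouse or pool as a replicate block. That unblocked total was 540 without mouse 1, 1334 without mouse 3 and 1125 when the pool was left out. Without a single CD38high array it was 1460 (pool) or 1188 (mouse 1), and 1591 without the CD38low array of mouse 1. Every named gene was listed by the authors as changed, so the counts of calls were fixed by that choice. The medians likewise describe only these chosen genes, not the lists.

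The 3 further genes were lower in CD38high cells. Nudt5, a hydrolase that splits ADP-ribose, had log2 values of 7.94, 8.09, 8.43 and 8.08 in CD38high cells of mouse 1, mouse 2, mouse 3 and the pool and 9.56, 9.50, 9.68 and 9.46 in CD38low cells. It was 2.66-fold lower (8.13 ± 0.21 against 9.55 ± 0.10, SD, n = 4 each), and the groups did not overlap, which its place in the authors' list favours and which 9.37% of all probesets showed in this direction. Parp4, the PARP of vault particles, stood at 7.10, 7.31, 7.41 and 7.20 against 8.54, 8.42, 8.26 and 8.02, and was 2.08-fold lower. Jpt2, known as a binding protein for NAADP, another calcium messenger made by CD38-type enzymes, stood at 9.85, 10.28, 10.14 and 10.28 against 11.19, 11.43, 11.15 and 11.06, and was 2.10-fold lower. Among the named genes of the pathway, the surface cyclases, Nmrk1 and the ADP-ribose-gated channel were thus higher in CD38high cells, and the named PARPs, the ADP-ribose hydrolase and the NAADP-binding protein were lower.

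The sorted fractions also differed in markers of maturation and of other cells. All named members of the list of granulocyte precursor genes were lower in CD38high cells (6 of 14 genes named, among them Ctsg, the cathepsin G gene, and Prtn3, the proteinase 3 gene), and their mean log2 level ranged from 10.28 to 10.74 in CD38high and from 12.52 to 12.67 in CD38low arrays. All named cell cycle genes were lower as well (25 of 40 named, among them Mcm2 and Mcm6 of the replicative helicase), at 8.22 to 8.67 against 9.91 to 10.20. The named mature neutrophil genes were higher (6 of 35 named), at 11.63 to 11.93 against 10.16 to 10.63. These genes were named only because the authors listed them as changed, 374 of 498 listed probesets being lower. The separation of the ranges is therefore given as a description. The other genes of these lists, most of the mature neutrophil list among them, had no entry by name in the authors' list. Over all probesets 6.99% had all CD38high arrays above and 9.37% all below the CD38low arrays. The precursor and cell cycle genes lay in the direction of Parp1 and the mature neutrophil genes in that of Bst1, Nmrk1 and Trpm2, and their part in the differences was not tested.

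B cells also carry CD38, and 1 of 20 B cell and plasma cell markers could be named. Cd79a, a chain of the B cell receptor complex, had log2 values of 9.75, 7.99, 9.32 and 8.91 in CD38high cells of mouse 1, mouse 2, mouse 3 and the pool, and 6.79, 6.45, 7.33 and 6.76 in CD38low cells. It was 4.46-fold higher in CD38high cells, with the lowest CD38high value in mouse 2. Of the T and NK cell markers 2 of 21 were named, Ccr7, a chemokine receptor (2.57-fold higher), and Nkg7, a granule gene of cytotoxic cells (5.31-fold lower). Their mean log2 level was 8.42 to 8.93 in CD38high and 8.96 to 9.40 in CD38low arrays. It averages opposite changes and describes neither gene. Mgl2, a lectin of macrophages and dendritic cells and the 1 named gene of 22 for monocytes and macrophages, was 6.60-fold lower. Selp (2.42-fold higher) and Mt1 (2.80-fold lower) were the 2 named of 15 genes in the list for erythroid cells and platelets. Their mean log2 level, 8.30 to 8.94 against 8.44 to 8.88, also averages opposite changes and does not measure the share of such cells. In the list for eosinophils, basophils and mast cells, 0 of 14 genes could be named. The part of such cells in the values of the 5 genes was not tested. The sort antigens CD11b and Gr1 could not be checked, since the rows of their genes were not located by name.

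**Figure D5:**
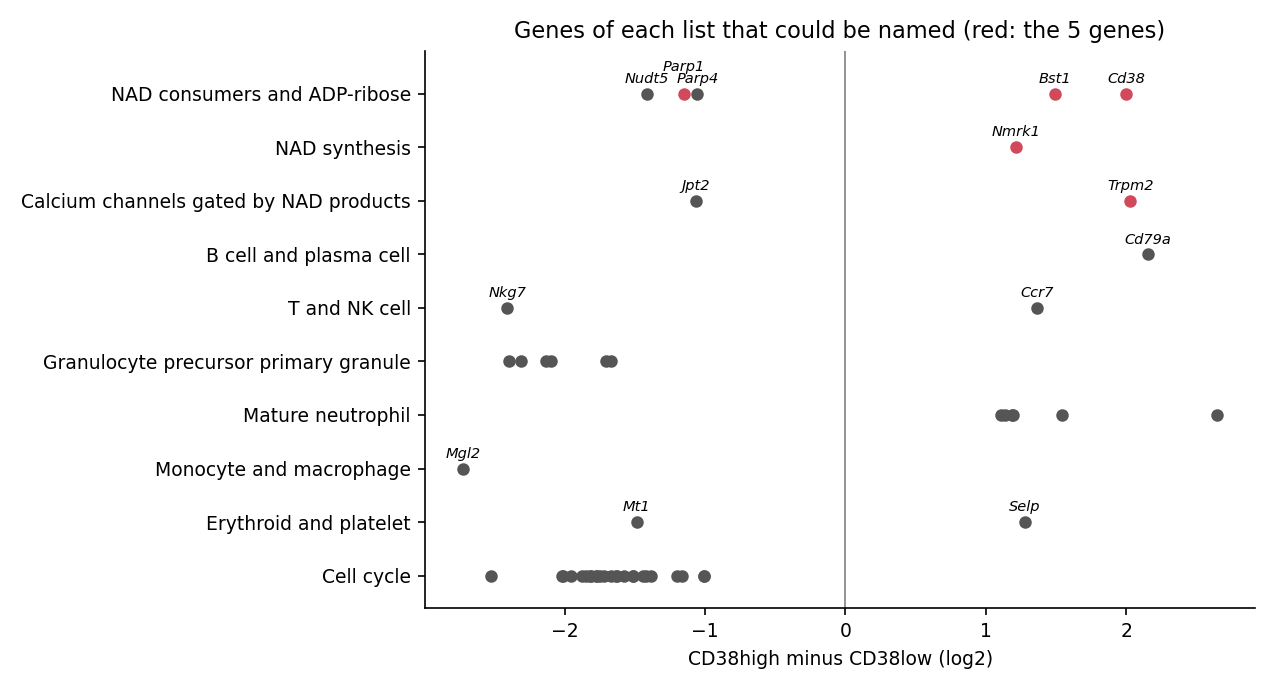
Log2 difference of CD38high minus CD38low (horizontal axis) of each gene that could be named, by list. Red points are the 5 genes and grey points the other named genes. In the NAD lists Nudt5, Parp1, Parp4 and Jpt2 lie below 0 and Bst1, Cd38, Nmrk1 and Trpm2 above, and the cell cycle and primary granule genes all lie below 0.

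Genes with the most similar profiles were taken as those with the smallest root mean square difference of gene-centred log2 values over the 8 arrays, among 479 other named genes. For Bst1 they were Il1rn, the interleukin 1 receptor antagonist (0.129), Adora3, an adenosine receptor (0.132), and Arhgap24 (0.167). Il1rn had its lowest value of each fraction in mouse 2, at 9.79 in CD38high and 8.27 in CD38low cells, as Bst1 did. For Trpm2 they were Timp2, a metalloprotease inhibitor (0.212), Slc37a3 (0.216) and Phospho1, a phosphatase of phosphocholine (0.231). For Nmrk1 they were Pcmtd2 (0.183), Slc44a1, a choline transporter (0.193), and Fas, the death receptor (0.195). For Parp1 they were Tusc3 (0.0989), Ext2, an enzyme of heparan sulfate synthesis (0.121), and Psat1, an enzyme of serine synthesis (0.129).

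Among the 479 other named genes, Cd38 had no equally close neighbour, and probesets without a name were not searched. Its nearest named genes were Fam169b (0.390), Entpd3, an ectonucleotidase (0.431), and P2ry13, a receptor for ADP (0.440). The median over all 479 genes was 1.62 for Cd38, 1.40 for Bst1, 1.24 for Nmrk1, 1.68 for Trpm2 and 0.332 for Parp1. Most listed probesets were lower in CD38high cells, 374 of 498, as Parp1 was. Among the 5 genes, Bst1 and Nmrk1 (0.345) and Bst1 and Trpm2 (0.360) were closest, and Cd38 was at 0.708 from Bst1 and 0.755 from Trpm2. In CD38low cells of the pool, where Cd38 was at 9.63, Fam169b stood at 6.49 against 6.35 to 6.86 in the CD38low arrays of the mice, within their range. Nearness here is a description over arrays that share mice, among genes that were all chosen by their difference between the fractions. That difference is also a large part of each profile compared.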

How the data were processed

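Amplified RNA of sorted cells was measured on 1-channel Affymetrix arrays, as the labels' protocols say. The authors deposited log2 expression values for 23332 probesets on 8 arrays, with array medians from 6.92 to 7.10, and a table of 498 probesets listed as changed. The submitters' processing notes name Affymetrix Power Tools, RMA and PLIER and the build mm9. Which of RMA and PLIER made the log2 values is not given in the sources used here. Their normalization was left as deposited, and the number of arrays limits the precision.

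Each of the 498 listed rows had the same 8 values, to 5 decimals, as exactly 1 row of the value table. This named 484 probesets, and symbols were updated through RefSeq accession (476), symbol (3) or synonym (4) in the GRCm38.p6 annotation, used for names and gene order, with 1 name kept. The 8 value columns of the listed table were used, not its H/L column. The chromosome of each gene is that of the authors' table, and promoter sequences are from RefSeq.

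Groups came from the sample titles. The fit of the fractions had no block, following the two-sample test of the series design, and used limma 3.58.1 in R 4.3.3, two-sided, with Benjamini-Hochberg adjustment over every probeset and calls under 0.05. SE is limma's moderated standard error, and folds are 2 to the power of the difference. Both fractions of a mouse or pool share animals, and within these pairs the deviations from the fraction's mean had correlations of 0.345 to 0.675. The paired fit therefore takes mouse or pool as its replicate block. The fits were tested on simulated data with known changes, in which the noise was independent between arrays. Those data lack the correlation within pairs, so they do not show how the unblocked fit performs with it. The 5 genes and the lists were chosen with earlier results of these data known. The text names the 5 genes and, in each list, up to 4 genes with the largest difference. For each of the 5 it also names the 3 most similar named genes (no predicted genes, small RNAs, clone names or immunoglobulin segments). Parp4 lies outside the 4 largest of its list and is named as well. Each gene is represented by its brightest named probeset. Further calculations used Python 3.11.15, pandas 2.3.3 and numpy 2.4.6, with plots by matplotlib 3.10.9.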

Additional observations from a re-analysis of the deposited data

Results flagged for a closer look

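Arrays far from the others of their fraction were sought with Dixon's test at its usual critical value for 4 samples. It was run on 80 groups (39 named genes and the array medians, in both fractions), and 3 arrays exceeded the value, against about 4 that chance would give. No group of the 5 genes was among them, and the 3 belong to genes of the marker lists. Mcm2, a subunit of the replicative helicase, had a value of 10.81 in the CD38low array of mouse 3, while the other CD38low arrays had 10.43 to 10.48. Igfbp4, a binding protein of insulin-like growth factors, had 9.9996 in the CD38low array of mouse 1, while the others had 10.32 to 10.38. Fpr1, the formyl peptide receptor, had 13.54 in the CD38high array of mouse 3, while the others had 13.31 to 13.33. All values are log2 expression, and each of these arrays stayed on its own fraction's side of the gap between fractions.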

How the results depend on the processing

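The 5 genes were run under 15 alternatives. They were the replicate block, leaving out a mouse, the pool or an array, quantile normalization on top, and arrays centred on their median. Each gene kept the direction of its difference, and each value moved by less than the SD of the 4 pair differences. Much of this was fixed in advance. The groups of these genes do not overlap, so leaving out arrays could not reverse a direction. The block cannot change a difference in this balanced design, and leaving out a pair moves a mean by less than that SD. Over the 15 alternatives, the log2 difference lay between 1.72 and 2.15 for Cd38, 1.26 and 1.67 for Bst1, 1.08 and 1.34 for Nmrk1, -1.27 and -1.06 for Parp1 and 1.82 and 2.30 for Trpm2. The replicate block left the differences as they were and gave SEs of 0.18 for Cd38, 0.12 for Bst1, 0.13 for Nmrk1, 0.11 for Parp1 and 0.20 for Trpm2. The test for mouse or pool was rerun without each mouse or the pool, with quantile normalization on top, with arrays centred on their median, with dim probesets left out and with trended and robust eBayes. Over these, the adjusted p of Bst1 ranged from 0.0684 to 0.699, that of Trpm2 from 0.133 to 0.640, that of Cd38 from 0.187 to 0.872, that of Nmrk1 from 0.132 to 0.635 and that of Parp1 from 0.197 to 0.648, so that none passed.

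Counts over all probesets moved more, and the cause was not tested. The number differing between fractions (2479, with 873 higher and 1606 lower) was 3929 with the replicate block (1626 higher) and 3840 with a random replicate block (1514 higher). A plain t-test without permutations gave 351 (78 higher, 273 lower) at the p and fold of the methods. It gave 1598 (545 higher, 1053 lower) after Benjamini-Hochberg. The authors' list holds 498 probesets (124 higher, 374 lower), so the 351 do not reproduce it. For the unblocked limma fit, leaving out arrays or pairs gave 540 to 2436 (113 to 953 higher, 427 to 1483 lower). With the block and a pair left out, a fit chosen after seeing the data, it gave 1942 to 2520 (743 to 942 higher, 1199 to 1597 lower). The number differing between mice or pool (732) was 297 with arrays centred on their median, 1141 with dim probesets left out, and 0 to 865 with a mouse or the pool left out.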
